A study of Rattus norvegicus with 18 samples.

Results

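The measured cytosines that lie outside the assembled rat chromosomes are described here. In the build named in the submitters' processing notes, rn6, they carry the names of contigs that are either placed on no chromosome (chrUn) or assigned to a chromosome without a position (random). They were chosen by name alone: every cytosine on a sequence other than chromosomes 1 to 20, X, Y and the mitochondrial genome was kept. This gave 3169 cytosines on 100 contigs, or 0.136% of the 2330883 in the table. Of them, 2631 lay on 79 chrUn contigs and 538 on 21 random contigs. The 2279082 cytosines of the autosomes served for comparison.

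DNA of the left hippocampus was digested with the restriction enzyme MspI, treated with bisulfite and sequenced (reduced representation bisulfite sequencing, RRBS). All 18 animals were male Sprague-Dawley rats of about 170 to 280 g. Kindling, by repeated electrical stimulation of the hippocampus, gave 4 seizure rats with 4 sham rats. Kainic acid, given systemically to induce status epilepticus, gave 3 seizure rats with 7 sham rats. Seizure rats carry the label of 3 seizures of Class V, a generalised convulsive stage, and were dissected 24 hours after the last one. The handling of the sham rats is not stated in the labels. The whole hippocampus mixes neurons and glia, so a shift in cell types and a shift in methylation within a cell type cannot be told apart.

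Contigs remain unplaced when an assembly cannot anchor them, often because they are rich in repeats or in copies of sequence found elsewhere. Reads from such copies can be assigned to the wrong copy, and a level then mixes several places of the genome. CpG methylation in mammals is high over most of the genome and low in CpG islands, the dense CpG stretches found at many promoters. RRBS favours such dense stretches because MspI cuts at sites that contain a CpG. The methylation level is the share of reads that kept a cytosine, given here in percent. Each strand of a CpG is a separate cytosine in the table. The table gives no read counts, so the depth behind a level is not known and no interval is given for a single value. No rn6 annotation was used, so genes and repeats on the contigs are not named.

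The contig cytosines were on the whole less methylated than the autosomal ones, and their levels fell into the usual classes of low and high. Their mean level was 27.6%, against 42.5% on the autosomes. Of the contig cytosines, 1985 (62.6%) had a mean over the 18 rats below 10%, against 48.2% of the autosomal ones. Another 660 (20.8%) lay between 10 and 90%, against 23.4% on the autosomes. The remaining 524 (16.5%) exceeded 90%, against 28.4% on the autosomes. Levels from 40 to 60%, where a cytosine methylated on 1 of 2 parental copies would fall, were held by 97 contig cytosines (3.06%), against 3.96% of the autosomal ones, and all 97 lay on chrUn contigs. The mean level was 28.7% on chrUn contigs and 22.6% on random contigs.

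The lower contig mean was present in every rat. The difference in mean level between contigs and autosomes averaged -14.8 ± 0.475 percentage points (SD, n = 18 rats), with a range of -15.6 to -13.9. A two-sided permutation test over the rats gave p = 1e-05, the smallest that its 100000 draws can give. It covers the spread between rats only, because the cytosines are the same in each rat. The share of values from 10 to 90% averaged 20.8 ± 1.77% on contigs and 23.3 ± 0.302% on autosomes (SD, n = 18), and was lower on contigs in 17 of 18 rats (p = 9e-05, same test). Both differences depend on how contigs are weighted. With each contig weighted equally and each autosomal cytosine as before, the difference in level was 12.6 points and that in the intermediate share 12.9 points, both higher on contigs. The mean of the 100 contig means was 55.1% and their median 70.5%.

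Most contigs with many measured cytosines had low levels and most with few had high levels, with exceptions on both sides. The median contig held 12 cytosines and the 10 largest together held 44.6% of all. In tiles of 1000 bp, 46 contig tiles (24.3%) held more than 20 cytosines, against 12.0% of the autosomal tiles. These dense tiles carried 71.3% of the contig cytosines and 56.1% of the autosomal ones. Their mean level was 18.5% on contigs and 25.3% on autosomes. In the 143 contig tiles with 20 or fewer cytosines it was 65.9%, against 76.8% in autosomal tiles. Within each of 7 density steps the contig mean was the lower one, from 71.5% against 77.4% at 1 to 2 cytosines to 9.57% against 10.02% at more than 80, the last over 6 contig tiles. These steps are a description without a test. With 1000 bp tiles weighted equally on both sides, an alternative added after the data were seen, the mean tile level was 54.4% on contigs and 70.6% on autosomes.

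**Figure D1:**
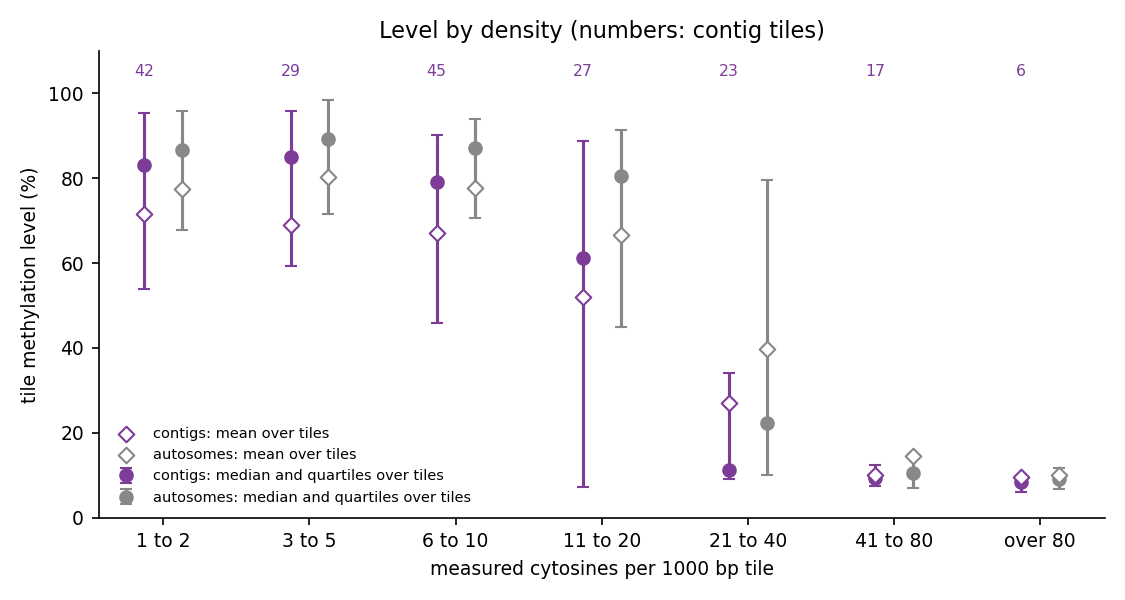
Methylation level of 1000 bp tiles (y axis, percent) by the number of measured cytosines they hold (x axis), for contigs (left of each pair) and autosomes (right). Filled circles and bars are medians and quartiles over tiles, open diamonds are means, and the numbers on top count contig tiles. The means are lower on contigs in all 7 steps and both series drop above 20 cytosines per tile.

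Single contigs spanned almost the whole scale, from 1.04 to 99.2%, while the 20 autosomes ranged from 38.7 to 48.3%. Of the 100 contig means, 16 were below 10%, 28 from 10 to 50%, 33 from 50 to 90% and 23 above 90%. Among the 38 contigs with at least 20 cytosines, which held 2715 cytosines, 12 were below 10% and 2 above 90%. No cytosine of intermediate level was found on 28 of the 100 contigs.

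**Figure D2:**
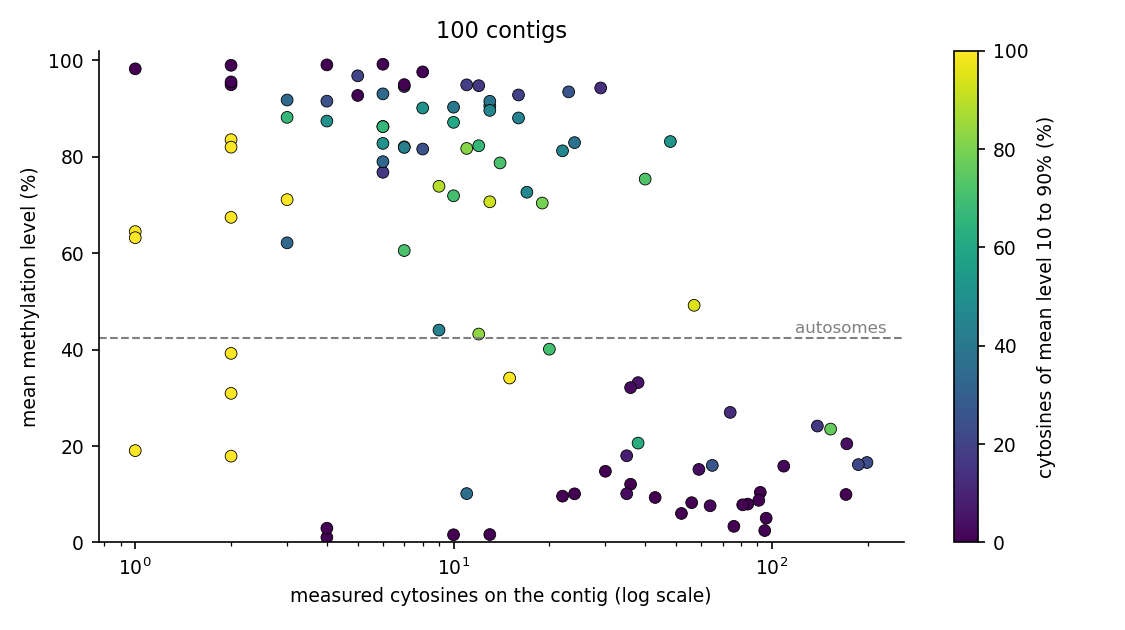
Mean methylation level over the 18 rats (y axis, percent) against the number of measured cytosines (x axis, log scale) for each of the 100 contigs, coloured by the share of their cytosines with a mean level from 10 to 90%. The dashed line marks the autosomal mean of 42.5%. Contigs with more than 60 cytosines lie below it, and most contigs with fewer than 20 lie above it.

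The contigs with most cytosines were dense and low in methylation. The largest, chrUn_KL568374v1, held 199 cytosines at a mean of 16.6%. It was followed by chrUn_KL568337v1 with 187 at 16.1%, chrUn_KL568413v1 with 172 at 20.5% and chrUn_KL568395v1 with 171 at 9.95%. Next came chrUn_KL568381v1 with 153 at 23.5%, chrUn_KL568384v1 with 139 at 24.1% and chrUn_KL568446v1 with 109 at 15.8%. The list of 10 closes with chrUn_KL568421v1 (96 at 5.03%), chr20_KL568103v1_random (95 at 2.46%) and chrUn_KL568367v1 (92 at 10.4%).

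On chr20_KL568103v1_random all 95 cytosines lay within 517 bp and none had a mean above 4.18%. It was the lowest of the contigs with at least 20 cytosines. The 4 next lowest were chr4_KL567939v1_random at 3.34%, chrUn_KL568421v1 at 5.03%, chrUn_KL568509v1 at 6.01% and chrUn_AABR07024101v1 at 7.60%. On chr4_KL567939v1_random 76 cytosines lay within 230 bp, and the rat means ranged from 3.17 to 3.57%. At the other end stood chrUn_KL568223v1 at 94.3% (29 cytosines), chrUn_KL568176v1 at 93.5% (23), chrUn_KL568409v1 at 83.2% (48), chrUn_KL568410v1 at 82.9% (24) and chrUn_KL568453v1 at 81.2% (22).

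The low, dense contigs also held single cytosines near full methylation amid almost unmethylated neighbours. With a rule set after the data were seen (a mean above 90%, at least 5 other cytosines within 100 bp and a median of these below 10%), 135 such isolated high cytosines were counted on 26 contigs. They made up 25.8% of all contig cytosines above 90%, against 14.9% (96480 cytosines) on the autosomes, while their share of all cytosines was 4.26% on contigs and 4.23% on autosomes. Their mean level was 97.6% on the contigs, and the rat means ranged from 96.5 to 98.5%. Their median SD between rats was 1.71 points, against 2.03 points for the other contig cytosines above 90%.

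These isolated cytosines usually lacked a measured partner on the other strand. The other strand of the same CpG was measured for 23.7% of them, against 88.8% of the contig cytosines below 10% and 71.5% of the other contig cytosines above 90%. Neighbouring isolated cytosines alternated between strands. Of 101 neighbouring pairs within 300 bp, 59 had a minus-strand cytosine followed by a plus-strand one, and these were 34 to 118 bp apart with a median of 64 bp. Another 38 had a plus-strand cytosine followed by a minus-strand one, 16 of them on adjacent bases. The remaining 4 pairs lay on 1 strand. On the autosomes 44712 pairs ran from minus to plus, and 99.7% of these were at most 120 bp apart. The reads were 110 bases long per the labels. In RRBS, the ends of an MspI fragment are filled in with added cytosines before bisulfite treatment, and a short insert can be read through to such an end. Whether the added cytosines were methylated is not known here, so neither is the level that such an end would show. Whether these positions are fragment ends was not tested, since no rn6 sequence was used.

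The contig chrUn_KL568395v1 is an example. Between positions 44217 and 45022 it held 152 measured cytosines. Over the whole contig 156 cytosines had means of 0.101 to 5.05%, the other 15 had means of 93.7 to 98.7%, and none lay between. All 15 were isolated by the rule above. In the dense stretch 14 of them formed 7 pairs from minus to plus, starting with 44365 and 44399. The distances within the 7 pairs were 34, 96, 40, 38, 81, 95 and 34 bp. The plus-strand cytosine at 44987 and the minus-strand cytosine at 44988 are both strands of 1 CpG. Leaving out all isolated cytosines, on contigs and autosomes alike, the means were 24.5% on contigs and 40.01% on autosomes.

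**Figure D3:**
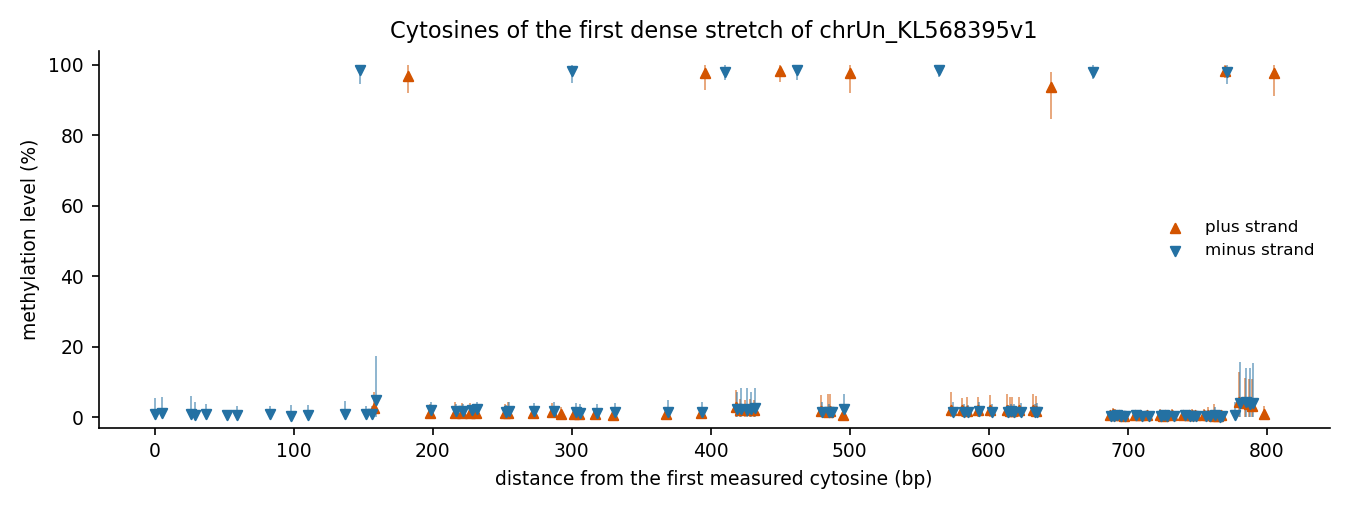
Methylation level (y axis, percent) of the 152 cytosines in the dense stretch of chrUn_KL568395v1, by distance from its first measured cytosine (x axis, bp). Triangles point up for the plus strand and down for the minus strand and mark the mean over 18 rats, and lines run from the lowest to the highest rat. High cytosines stand among neighbours below 10%, mostly without a partner on the other strand.

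Some contigs were instead filled with intermediate levels. On chrUn_KL568428v1, 94.7% of the 57 cytosines lay between 10 and 90%, at a mean of 49.2%. This share was 76.5% on chrUn_KL568381v1, 72.5% on chrUn_KL568478v1 (40 cytosines at 75.4%), 70% on chrUn_KL568458v1 (20 cytosines at 40.1%) and 63.2% on chr2_AABR07045875v1_random (38 cytosines at 20.6%). Of these contigs, 4 were also among the 5 with the largest mean range between rats. The mean range per cytosine was 33.2 points on chrUn_KL568428v1, 29.9 on chr2_AABR07045875v1_random, 26.8 on chrUn_KL568478v1, 23.9 on chrUn_KL568381v1 and 15.6 on chrUn_KL568409v1.

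Among the 38 contigs with at least 20 cytosines, the mean of chr2_AABR07045875v1_random differed most between single rats. It was 37.6, 23.3, 15.2 and 30.8% in kindling seizure rats, against 16.2, 12.4, 26.3 and 27.0% in kindling sham rats. It was 21.9, 14.4 and 14.3% in kainic acid seizure rats, against a lowest value of 12.9%, a median of 17.3% and a highest of 29.3% in kainic acid sham rats. The groups overlapped in both models. The cytosines moved together: the level of each of the 35 cytosines up to 90% correlated across rats with the mean of the others, with a median r of 0.87.

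On chrUn_KL568381v1 the means were 31.4, 30.0, 21.6 and 21.3% in kindling seizure rats, against 19.7, 16.96, 23.9 and 24.0% in kindling sham rats. They were 21.9, 22.9 and 23.1% in kainic acid seizure rats, against a lowest value of 18.3%, a median of 21.2% and a highest of 31.4% in kainic acid sham rats. Here too the groups overlapped in both models. Of 144 cytosines up to 90%, 143 correlated positively with the mean of the others (median r = 0.70). On chrUn_KL568428v1 the means were 51.5, 51.9, 44.7 and 49.9% in kindling seizure rats, against 53.9, 46.9, 48.5 and 46.5% in kindling sham rats. They were 54.8, 46.8 and 55.2% in kainic acid seizure rats, against a lowest value of 40.7%, a median of 47.5% and a highest of 54.2% in kainic acid sham rats. The median r among its cytosines was 0.49. These correlations are across rats within 1 contig, whose cytosines share reads and libraries, and are a description.

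**Figure D4:**
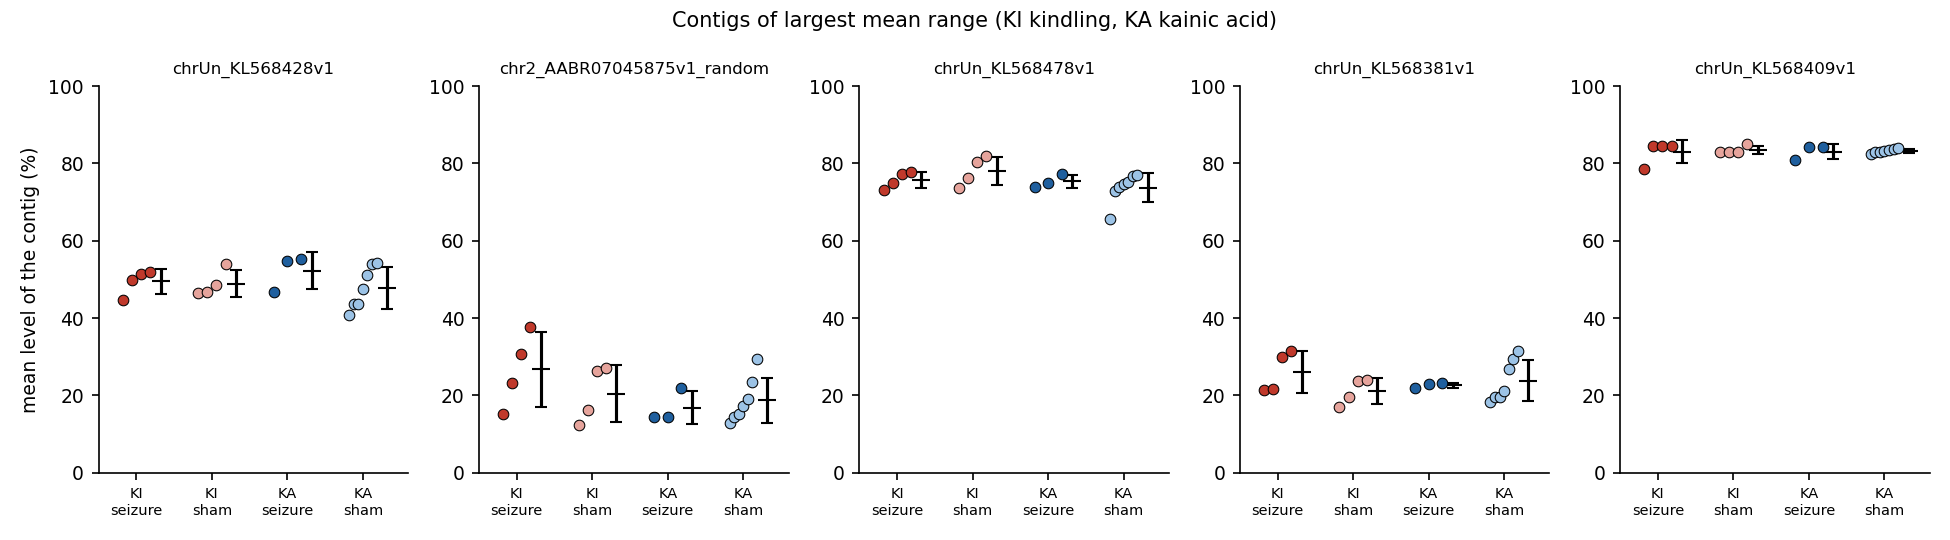
Mean level of each rat (points, percent) on the 5 contigs with the largest mean range between rats, by group, with seizure left of sham in kindling (KI) and in kainic acid (KA). Bars are the group mean and SD (n = 4, 4, 3 and 7). Seizure and sham rats overlap on each of the 5 contigs.

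Rat means were also compared between contigs, here chr2_AABR07045875v1_random and chrUn_KL568381v1. Pearson's r was 0.63 over 18 rats (permutation p = 0.0055, adjusted p = 0.055 over 20 relations) and Spearman's rho 0.66 (permutation p = 0.0034, adjusted p = 0.068). Without the 2 rats farthest from the median r was 0.64, and within kindling (n = 8) and kainic acid rats (n = 10) it was 0.71 and 0.64, by description. Between chrUn_KL568478v1 and chrUn_KL568381v1 r was -0.61 (permutation p = 0.00458, adjusted p = 0.055) and rho was -0.50 (permutation p = 0.0371, adjusted p = 0.225), and r was -0.34 without the 2 farthest rats, so that it rests in part on them. Within kindling (n = 8) and kainic acid rats (n = 10) r was -0.63 and -0.72, by description. No relation passed the adjustment, and this held as well for those of the 5 contigs with the rats' autosomal level and with their share of values at 0.

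A few single cytosines had a far wider spread. The range over the 18 rats exceeded 60 points at 7 contig cytosines (0.221%), against 0.557% on the autosomes. On chrUn_KL568466v1 the plus-strand cytosines at 26737 and 26748, 11 bp apart, divided the same rats into a low and a high set. At 26737, 8 rats had 25% or less and 10 rats had 62.1% or more. At 26748 the same 8 rats had 30.6% or less and the same 10 had 64.2% or more. The low set held 1 of 4 kindling seizure and 0 of 4 kindling sham rats, and 3 of 3 kainic acid seizure and 4 of 7 kainic acid sham rats. The other 4 cytosines of this contig had means of 90.6 to 99.5%, and the lowest value of any rat there was 78.6%. These sets were found from the levels themselves and support no group difference.

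At position 183 of chrUn_KL568446v1, on the minus strand, the levels were 90.9, 0 and 0% in kainic acid seizure rats, while the kainic acid sham rats ranged from 30.0 to 100%. The kindling seizure rats had 90.9, 100, 61.5 and 91.7% there and the kindling sham rats 52.2, 100, 100 and 70%. The next measured cytosine, 14 bp away on the same strand, was at 77.3% or more in every rat. The other 4 wide cytosines were 11277 and 11291 on chrUn_KL568428v1 and 21317 and 21770 on chrUn_KL568478v1, all on the minus strand.

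Methylation of a CpG is normally copied to both strands, and agreement between them can be described without read counts. Each strand has its own reads, so the difference also holds sampling noise that depends on the depth, which is unknown. Both strands were measured for 1289 contig CpGs. Of the contig cytosines, 81.4% had their partner in the table, against 86.6% on the autosomes. The SD of the difference between strands averaged 5.72 ± 0.592 points on contigs and 5.48 ± 0.467 points on autosomes (SD over 18 rats). The excess of 0.240 points gave p = 0.002 in a two-sided permutation test and was positive in 14 of 18 rats. It rested on few contigs, and leaving out any 1 of 5 ended the call. It was 0.0114 points (permutation p = 0.898) without chrUn_KL568374v1, 0.00242 (permutation p = 0.969) without chrUn_KL568428v1 and 0.0402 (permutation p = 0.637) without chrUn_KL568490v1. It was 0.108 points (permutation p = 0.162) without chrUn_KL568475v1 and -0.0272 (permutation p = 0.736) without chr5_KL567958v1_random. Without chrUn_KL568381v1 it was 0.159 and without chrUn_KL568413v1 0.397 points. The mean absolute difference in place of the SD gave -0.0612 points (permutation p = 0.171). Without the 5 contigs of largest range between rats the excess in SD was -0.214 points (permutation p = 0.00322). Those 5 were chosen for their range and left out on the contig side only. This p therefore cannot show that strands agree better on contigs.

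Within level classes the SD of the strand difference was larger on contigs at low and intermediate levels. A set of 9 tests over the rats was made on strand difference, spread and level in 3 classes and adjusted together, all with two-sided permutation tests. Like the test of the strand excess, they cover the spread between rats only, because the cytosines are the same in each rat. Of the contig CpGs measured on both strands, 881 had a mean level below 10%, 255 from 10 to 90% and 153 above 90%. For CpGs with a mean level below 10% the SD was 2.87 points on contigs and 2.45 on autosomes, higher in 17 of 18 rats (adjusted p = 4.5e-05). From 10 to 90% it was 11.2 and 9.99 points, higher in 18 of 18 rats (adjusted p = 3e-05). That difference of 1.23 points was 0.766 without chrUn_KL568374v1, 0.794 without chrUn_KL568490v1 and 0.596 without chr5_KL567958v1_random. Without the 5 contigs of largest range it was 2.16 points, higher in 18 of 18 rats. Above 90% it was 4.09 and 3.95 points (higher in 11 of 18 rats, adjusted p = 0.281).

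A mean difference between strands above 20 points occurred at 8 contig CpGs (0.621%), against 0.214% on the autosomes. On chr5_KL567958v1_random the CpG at 25028 had 7.46 ± 3.08% on the plus strand and 63.5 ± 6.30% on the minus strand (SD, n = 18), with no overlap: the highest plus-strand value was 14.3% and the lowest minus-strand value 54.9%. On chrUn_KL568475v1 the CpG at 2473 had 90.2 ± 2.45% on the plus strand and 46.8 ± 8.13% on the minus strand. On chrUn_KL568374v1 the CpG at 224498 had 44.9 ± 10.2% on the plus strand and 1.42 ± 1.12% on the minus strand. Each of these 3 differences had the same direction in 18 of 18 rats. Another 3 of the 8 CpGs, at 62, 64 and 127, lay on chrUn_KL568490v1, where the plus strand had 49.97 to 56.9% and the minus strand 24.3 to 31.1%. The other two were at 76184 on chr4_KL567940v1_random and at 260482 on chrUn_KL568374v1.

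The spread between rats of 1 group, measured as the mean absolute deviation of a rat from the mean of the others in its group, was 2.69 ± 0.276 points on contigs and 2.74 ± 0.309 points on autosomes (SD over 18 rats). The difference of -0.0534 points gave a permutation p of 0.252 and was negative in 12 of 18 rats. Deviations within a group share their means, so the rats are not fully independent in this test. Across settings it took both signs, and it was -0.486 points without the 5 contigs of largest range, which were chosen for their range. Within classes, the spread of cytosines below 10% was 1.60 points on contigs and 1.39 points on autosomes, higher in 18 of 18 rats (adjusted p = 3e-05, permutation test). That difference of 0.209 points was 0.133 without chrUn_KL568337v1. The low class also had a higher level on contigs, 2.23% against 1.87% (higher in 17 of 18 rats, adjusted p = 5.4e-05), a difference of 0.354 points that was 0.202 without chrUn_KL568337v1. It was not tested whether the level sets the spread. From 10 to 90% the spread was 6.50 and 6.44 points (adjusted p = 0.741). Without the 5 contigs of largest range that difference was -0.593 points, higher on contigs in 2 of 18 rats (permutation p = 0.00016). Those 5 were chosen for their range and left out on the contig side only, so this p cannot show that contigs spread less. Above 90% the spread was 2.02 and 1.99 points (adjusted p = 0.281).

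The mean level of the intermediate class was 49.3% on contigs and 60.03% on autosomes, lower in 18 of 18 rats (adjusted p = 3e-05). The difference of -10.8 points was -4.83 points without chrUn_KL568381v1 and -3.53 points without the 5 contigs of largest range. In the class above 90% the level was 96.7% on contigs and 96.9% on autosomes (lower in 14 of 18 rats, adjusted p = 0.000225), a difference of -0.182 points that was -0.120 without chrUn_KL568409v1. This class includes the isolated high cytosines, 25.8% of it on contigs and 14.9% on autosomes. Without them the level was 96.3% on contigs and 96.7% on autosomes, given without a test. Values of exactly 0 made up 15.7% on contigs and 13.9% on autosomes, and values of exactly 100% made up 4.70% and 9.75%.

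Seizure and sham rats were compared next, since the series asks what the models share. The difference in mean level of the contig cytosines passed the permutation test in neither model. It was 28.1 ± 0.595% in kindling seizure rats and 27.4 ± 0.544% in kindling sham rats (SD, n = 4 each), which is 0.697 points higher (p = 0.143 by an exact two-sided permutation, where the smallest possible with 70 arrangements is 0.0286). It was 27.7 ± 0.200% in kainic acid seizure rats (n = 3) and 27.5 ± 0.603% in kainic acid sham rats (SD, n = 7), a difference of 0.206 points (exact permutation p = 0.642). The difference between the models, kainic acid minus kindling, was -0.492 points (permutation p = 0.420, labels permuted within each model).

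Each rat's contigs were also set against its autosomes, and the difference passed the test in neither model. The contig minus autosome difference was -14.5 ± 0.539 points in kindling seizure rats and -14.9 ± 0.274 points in kindling sham rats (SD, n = 4 each), 0.428 points closer to 0 in seizure rats (exact permutation p = 0.229). Without kindling seizure rat 3 this was 0.657 points with an exact permutation p of 0.0286, so that rat decides the call. In kainic acid it was -15.0 ± 0.291 points in seizure rats (n = 3) and -14.9 ± 0.557 points in sham rats (SD, n = 7), a difference of -0.126 points (exact permutation p = 0.675). By contig, 60 of 100 means were higher in kindling seizure than sham rats, with a median difference of 0.226 points, and 64 of 100 were higher in kainic acid seizure than sham rats, with a median difference of 0.216 points. All 20 autosomes had a higher mean in seizure rats of both models. Contigs and autosomes of a rat come from 1 library, so these counts repeat the same rats and are a description. The autosomal mean was 42.6 ± 0.468% in kindling seizure and 42.3 ± 0.386% in kindling sham rats (SD, n = 4 each). In kainic acid it was 42.7 ± 0.0928% in seizure rats (n = 3) and 42.4 ± 0.281% in sham rats (SD, n = 7). Autosomal values of exactly 0 made up 13.3 ± 5.30% in kindling seizure rats and 17.5 ± 6.40% in kindling sham rats. They made up 10.2 ± 1.90% in kainic acid seizure rats and 13.7 ± 3.62% in kainic acid sham rats. On contigs these means were 14.6, 20.2, 11.2 and 15.6% in the same order. How far this share bears on the group differences in level was not tested.

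**Figure D5:**
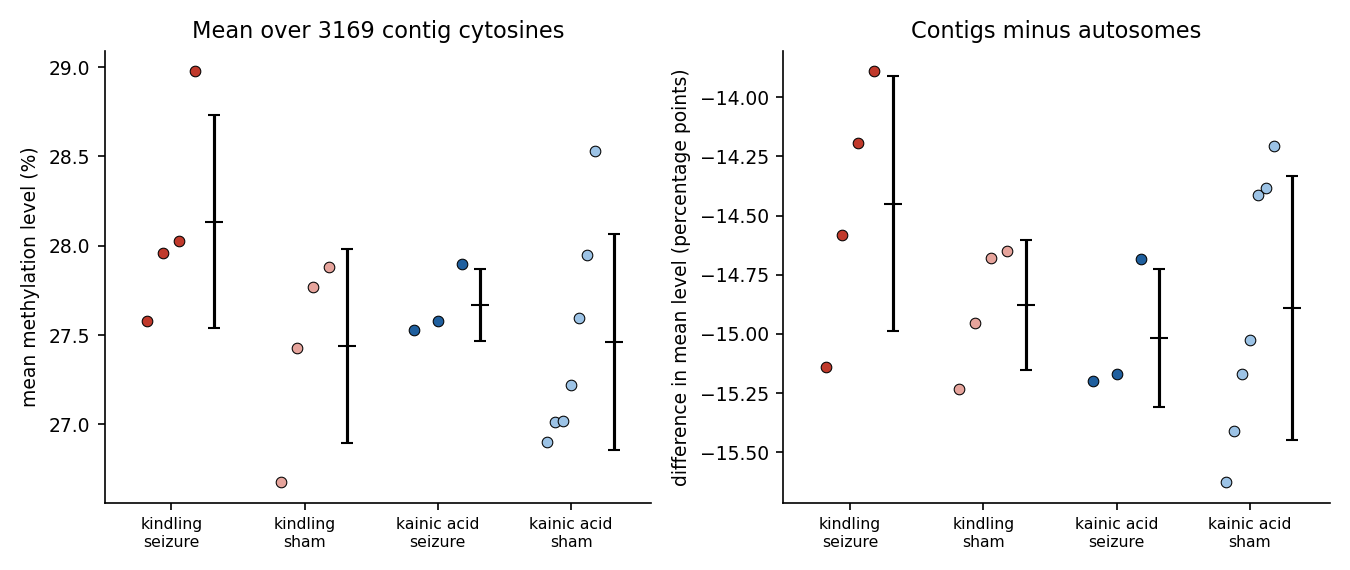
Mean level over the 3169 contig cytosines (left, percent) and contig minus autosome mean level (right, percentage points) in each rat, by group, with mean and SD beside the points (n = 4, 4, 3 and 7). The axes do not start at 0. Seizure and sham rats overlap in both models, and all 18 differences on the right are negative.

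Single contig cytosines were tested in a limma fit over the whole table, with 800753 cytosines whose range was at least 10 points. The filter kept 1133 of the 3169 contig cytosines (35.8%), against 34.2% of the autosomal ones. Of the 1133, 0 were called at an adjusted p under 0.05 in kindling, kainic acid or the mean of both, and 0 between the kainic acid sham and kindling sham rats. Over all cytosines the background of calls was 0% in kindling, 0.000624% (5 cytosines) in kainic acid, 0% for the mean of both and 0% between sham groups. The smallest adjusted p of a contig cytosine, by limma, was 0.632 in kindling, 1 in kainic acid, 0.963 for the mean of both and 0.489 between sham groups.

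At an unadjusted p under 0.05, by limma, 70 contig cytosines (6.18%) were higher and 19 (1.68%) lower in kindling seizure than sham rats, against backgrounds of 3.41% and 2.32%. Of the 70, 28 lay on chrUn_KL568381v1, whose cytosines move together. Elsewhere on the contigs 42 were higher (4.22%). Single rats moved the count of 70: it was 37 (3.42%, background 2.98%) without kindling seizure rat 1, 40 (3.56%, background 3.59%) without kindling sham rat 2 and 109 (9.95%, background 2.86%) without kindling seizure rat 3. In kainic acid 29 (2.56%) were higher and 15 (1.32%) lower, against backgrounds of 2.20% and 1.62%, and 10 of the 29 lay on chrUn_KL568428v1. For the mean of both models the counts were 47 higher and 16 lower, with backgrounds of 3.00% and 1.73%. The 47 were 30 (2.77%, background 2.64%) without kindling seizure rat 1 and 31 (2.76%, background 2.9%) without kainic acid seizure rat 1. They were 71 (6.48%, background 2.54%) without kindling seizure rat 3. Between kainic acid sham and kindling sham rats they were 32 higher and 38 lower, with backgrounds of 3.28% and 2.89%. The 32 were 17 (1.51%, background 3.41%) without kindling sham rat 2 and 19 (1.7%, background 3.09%) without kainic acid sham rat 6. Groups without overlap were counted as well. In kindling 17 of the 1133 contig cytosines were wholly higher and 13 (1.15%) wholly lower in seizure rats, with backgrounds of 1.43% and 0.985%. In kainic acid these were 12 (1.06%) and 9 (0.794%), with backgrounds of 0.955% and 0.573%. Between kainic acid sham and kindling sham rats 2 (0.177%) were wholly higher and 5 (0.441%) wholly lower, with backgrounds of 0.356% and 0.348%.

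The cytosine with the smallest kindling p lay at 27817 on the minus strand of chrUn_KL568381v1. It had 29.3, 17.5, 17.3 and 17.1% in kindling seizure rats, against 8.47, 0, 3.57 and 0% in kindling sham rats, and these groups did not overlap. The difference was 17.3 ± 7.79 points (95% interval), with a limma adjusted p of 0.632. In kainic acid it was 19.1 ± 7.67% in seizure rats (SD, n = 3) and 10.6 ± 5.28% in sham rats (SD, n = 7). It also had the smallest p for the mean of both models, a difference of 12.9 points with a limma adjusted p of 0.963. Its partner on the plus strand, at 27816, had 15.7 ± 3.50% in kindling seizure rats and 11.9 ± 9.58% in kindling sham rats (SD, n = 4 each). At 27831 on the minus strand, also among the 3 smallest p of those higher in kindling seizure rats, kindling seizure rats had 16.3 ± 5.53% and kindling sham rats 4.70 ± 4.001%. The kindling groups overlapped at 27831.

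The second smallest p of those higher in kindling seizure rats lay at 159 on the minus strand of chrUn_KL568490v1, with 46.7 ± 10.8% in kindling seizure rats and 27.6 ± 3.36% in kindling sham rats (limma adjusted p = 0.718). This contig held 15 cytosines, all of intermediate level. Its tile of 14 cytosines, which includes the one at 159, had the smallest kindling p among the contig tiles. The tile had 40.6 ± 10.2% in kindling seizure rats and 27.6 ± 8.52% in kindling sham rats (SD, n = 4 each). Kindling seizure and sham rats overlapped at 159 and in the tile. In the tile, kainic acid seizure rats had 29.4 ± 11.2% and kainic acid sham rats 31.2 ± 6.81%. Lower in kindling seizure rats, with the smallest p, was 24589 on the plus strand of chrUn_KL568412v1, at 72.6 ± 6.62% against 87.0 ± 6.69% in kindling sham rats (limma adjusted p = 0.699). After it came 76219 on chr4_KL567940v1_random, at 85.7 ± 0.340% in kindling seizure rats and 97.6 ± 4.84% in kindling sham rats, and 21712 on chrUn_KL568478v1, at 68.9 ± 3.75% and 80.7 ± 5.54%.

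In kainic acid the smallest p values belonged to neighbouring minus-strand cytosines of chrUn_KL568395v1. At 45005 seizure rats had 9.01 ± 5.27% (n = 3) and sham rats 1.98 ± 1.61% (SD, n = 7), and at 44998 seizure rats had 9.67 ± 6.77% and sham rats 2.10 ± 1.77%. At 4415 on chrUn_KL568513v1 seizure rats had 92.2 ± 4.59% and sham rats 80.3 ± 3.96%. The lower ones were 20906 on chr5_KL567954v1_random, at 82.2 ± 7.19% in seizure rats and 91.0 ± 2.19% in sham rats, 64258 on chrUn_AABR07024039v1 and 572 on chrUn_AABR07024007v1. All 6 had a limma adjusted p of 1.

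Between kainic acid sham and kindling sham rats the smallest contig p was at 21712 on the minus strand of chrUn_KL568478v1, at 66.6 ± 5.12% in kainic acid sham rats (n = 7) and 80.7 ± 5.54% in kindling sham rats (n = 4), with a limma adjusted p of 0.489. The same cytosine was among those lower in kindling seizure than sham rats. Both comparisons use the same kindling sham rats, whose level there was the highest of the 4 groups.

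For tiles of 1000 bp with at least 3 cytosines, 78 of the 147 contig tiles had a range of at least 5 points and were tested among 84600. None was called in kindling, kainic acid, the mean of both or between sham groups by limma, where the background was 0% in each. The smallest adjusted p, by limma, was 0.872, 1, 0.99 and 0.654 in that order. Of the 78, 1 was wholly higher and 1 wholly lower in kindling seizure rats (backgrounds 1.53% and 0.910%), and 0 and 1 in kainic acid seizure rats (backgrounds 0.982% and 0.507%). Between kainic acid sham and kindling sham rats the counts were 0 and 1 (backgrounds 0.404% and 0.474%). At an unadjusted p under 0.05, by limma, 1 tile was higher and 1 lower in kindling seizure rats (backgrounds 3.59% and 2.12%), and 2 were higher and 0 lower in kainic acid seizure rats (backgrounds 2.13% and 1.41%). For the mean of both models 2 were higher and 1 lower (backgrounds 3.07% and 1.48%), and between kainic acid sham and kindling sham rats 2 were higher and 6 lower (backgrounds 3.28% and 3.07%). The kainic acid tiles with the smallest p were 45001 to 46000 of chrUn_KL568395v1, at 17.2 ± 2.73% in seizure rats and 14.5 ± 0.950% in sham rats, and 10001 to 11000 of chrUn_KL568428v1, at 53.7 ± 6.97% in seizure rats and 47.6 ± 3.19% in sham rats (limma adjusted p = 1 for both). Seizure and sham rats overlapped in both tiles. The tile of chrUn_KL568395v1 includes 45005, named above, and an isolated high cytosine at 45022 (97.7%). Its other cytosines had means of 0.994 to 4.26%.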

How the data were processed

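The deposited table holds methylation fractions (beta values from 0 to 1) per cytosine and rat, per the labels and its values, with 0 missing values. Per the submitters' processing notes, the tools were Bismark, Bowtie2, methylKit, Trim Galore and FastQC and the build was rn6; versions, roles and any coverage filter are not given there. Without read counts the depth is unknown, and single values have no interval. All columns were used. The labels give each sample as its own rat.

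Fractions were multiplied to percent and differences are seizure minus sham, kainic acid sham minus kindling sham, or contigs minus autosomes. Values per rat were compared by exact permutation, or over 18 rats by 100000 random sign changes. Cytosines (range of at least 10 points) and 1000 bp tiles (at least 3 cytosines, range of at least 5 points) were tested with limma 3.58.1 in R 4.3.3 (version 1.17.8 of data.table), as 1 fit over 4 groups on fractions with 14 residual degrees of freedom and Benjamini-Hochberg adjustment over all tested units. Python 3.11.15, numpy 2.4.6, pandas 2.3.3 and matplotlib 3.10.9 were used. The tests were checked on simulated data.

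Named contigs are the 10 with most cytosines and, among those with at least 20, the 5 highest, the 5 lowest, the 5 with the largest intermediate share and the 5 with the largest mean range. With under 5 calls in a contrast, the 3 cytosines and tiles of smallest p in each direction could be named. Other cytosines and contigs described were chosen after their values were seen. The contigs, lists and tests were chosen with earlier results of these data known. Alternatives changed the contigs kept, their weights, class borders, filters, scale, pairing and rats.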

Additional observations from a re-analysis of the deposited data

Results flagged for a closer look

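Of 81 groups of 4 or 7 rats checked for 1 rat far from the others, 3 held such a rat, and chance flags about 1 in 20. On chrUn_KL568409v1, kindling seizure rat 4 had a mean level of 78.5%, while the other kindling seizure rats had 84.4 to 84.5%. On the same contig, kindling sham rat 1 had 84.9%, while the other kindling sham rats all had 83.0%. On chrUn_KL568478v1, kainic acid sham rat 6 had 65.7%, while the other kainic acid sham rats had 72.9 to 77.0%. Of 27 measures tested for a seizure effect that differs between the models, 0 passed.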

How the results depend on the processing

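Of 423 recomputed results, 405 kept their direction and their side of the threshold. The differences between contigs and autosomes depended most on the setting. With each contig weighted equally and each autosomal cytosine as before, the level was 12.6 points and the intermediate share 12.9 points higher on contigs. With 1000 bp tiles weighted equally on both sides, the mean tile level was 54.4% on contigs and 70.6% on autosomes. The strand excess was 0.134 points on chrUn contigs alone, 0.0772 with at least 10 cytosines per contig, 0.0114 without the largest contig, -0.0612 as a mean absolute difference and -0.214 without the 5 contigs of largest range. The spread difference was 0.0227 on chrUn contigs alone, -0.128 with at least 10 cytosines per contig, 0.794 with contigs weighted equally, 0.0441 with strands averaged, -0.0316 as a median, 0.0608 from 10 to 90% only, -0.378 over tiles and -0.486 without the 5 contigs. The cause of these changes was not tested. The settings over tiles and without the 5 contigs were added after the data were seen. The kainic acid level difference was -0.0272 points over tiles.

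Leaving out each rat in turn gave 0.417 to 0.884 points for the kindling level, 0.241 to 0.657 for the kindling contig minus autosome difference and -14.9 to -14.8 points for that difference over all rats. No contig cytosine or tile was called by limma under any setting run.

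Same-numbered rats did not deviate together (kindling r from -0.0401 to 0.0738, kainic acid r from -0.0188 to -0.00466), and not every rat correlated best with its own number. Over the 3 kainic acid pairs of same-numbered rats, the contig minus autosome difference was 0.385 points (exact permutation p = 0.5), opposite in sign to the unpaired one. With so few pairs this test cannot give a p under 0.05, and the other sham rats are left out. With the replicate number as a block, limma called 0 contig cytosines, as without the block.

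Fractions without read counts leave the noise of each value unknown.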
